A study of Homo sapiens with 9 samples.

Results

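The 8 genes described here encode enzymes that make, use or interconvert glutamate and glutamine: GLS2, GLUL, GLUD1, GOT1, GOT2, GPT2, ALDH18A1 and PYCR1. They were taken by symbol from a deposited expression table of 58735 genes, in which each symbol named 1 gene. All 8 were in the table, and 7 of them passed the filter on low values that 11845 genes passed (at least 1 FPKM in at least 3 libraries). FPKM scales the fragments of a gene by its length and by a divisor for each library. The length used was that of all exon bases of the gene. For each of the 8 it exceeded the longest transcript, to differing degrees (3766 against 2462 bases for GOT2, 3519 against 3039 for GLUD1). Levels of different genes within a library can therefore be compared only for these lengths, and FPKM does not adjust for GC content. In the deposited values this divisor was 0.769 to 1.23 times the library's total of fragments assigned to genes. GLS2 did not pass the filter and was not tested.

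Expression was measured by poly-A RNA sequencing of GBM43 glioblastoma cells, a single human cell line, seeded into 3D hyaluronic acid devices and cultured in medium that contains serum, antibiotics and the glutamine source Glutamax. In control devices the core and the invading cells were separated by scalpel, which gave 3 core and 3 invasive libraries. A further 3 libraries came from devices given 50 µM MK801, an inhibitor of NMDA-type glutamate receptors, and in these the core and invasive cells were sequenced together because too few cells had invaded to be collected apart. No library holds the invasive cells of a treated device alone, so the MK801 group matches neither control fraction in makeup. The submitters describe what the control devices received as vehicle (DMSO) in one place and as culture medium in another. Whether the 3 libraries of a group are separate cultures is not stated, and all p-values therefore reflect spread among libraries that may be technical replicates.

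Glutaminases such as that encoded by GLS2 release ammonia from glutamine to give glutamate, and glutamine synthetase, encoded by GLUL, runs the opposite step. Glutamate enters the tricarboxylic acid cycle as 2-oxoglutarate, either through glutamate dehydrogenase (GLUD1) or through transaminases, which pass its amino group to oxaloacetate (GOT1 in the cytosol, GOT2 in mitochondria) or to pyruvate (GPT2 in mitochondria). Glutamate is also the precursor of proline, through the synthase encoded by ALDH18A1 and reductases such as that encoded by PYCR1. In brain tissue GLUL is known mainly from astrocytes, which take up synaptic glutamate and return it as glutamine.

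The libraries held 15584610 to 54409666 fragments assigned to genes. At an equal depth of 15584610 fragments, core libraries detected 20322 to 21414 genes, invasive libraries 15975 to 19140 and MK801 libraries 15161, 19031 and 21517, in order of replicate number. The mean GC content of the transcripts, weighted by fragments, was 49.0 to 50.3% for the core, 51.9 to 53.7% for the invasive fraction and 53.6, 52.4 and 49.7% for MK801. Core and invasive libraries did not overlap in either measure, and MK801 library 3 lay with the core or beyond it. Both measures are given beside the enzyme levels where they run in parallel, and their part in any difference was not tested. VIM, CD44, EGFR and SOX2 were the 4 of 10 glioma and astrocyte markers that reached 1 FPKM. The others, OLIG2, NES, GFAP, S100B, AQP4 and ALDH1L1, did not reach it in any library. Markers of fibroblasts and pericytes, of which 6 of 8 reached 1 FPKM, summed to 70.5 to 145 FPKM per core library, 351 to 618 per invasive library and 83.1 to 197 per MK801 library, and their part in the differences between groups was not tested. Microglial markers (1 of 6 at 1 FPKM) summed to 1.82 to 2.78 FPKM per core, 4.36 to 5.84 per invasive and 1.76 to 4.75 per MK801 library. Endothelial markers (2 of 4) summed to 0.768 to 1.23, 1.63 to 4.60 and 0.791 to 1.10 FPKM in the same order. For all 3 of these marker lists, the sum of every invasive library lay above that of every core library. The microglial sum was mostly CSF1R (means 1.98 FPKM in core and 4.81 in invasive libraries). Of the other microglial markers, P2RY12 had a higher invasive mean and PTPRC, AIF1, CX3CR1 and CD68 a lower one. The endothelial sums differed mainly through CDH5 (0.0295 FPKM in core and 1.78 in invasive), while PECAM1 overlapped. COL1A1 and COL1A2 made up most of the fibroblast and pericyte sum, and RGS5 alone of that list had a lower invasive mean. For the other marker lists, neuronal markers reached 1 FPKM for 1 of 5, and oligodendrocyte (0 of 4) and hepatocyte markers (0 of 3) did not. In bulk samples, fewer cells that express a gene and less of its RNA per cell cannot be told apart.

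By FPKM, glutamate dehydrogenase had the highest level of these transcripts in the core, and in the invasive fraction 3 other enzymes stood level with it. The order between enzymes rests on the gene lengths used. Over the 3 core libraries the mean was 38.9 FPKM for GLUD1, 24.6 for ALDH18A1, 20.3 for GOT2, 16.4 for GLUL, 16.2 for PYCR1, 5.98 for GOT1 and 1.85 for GPT2. GLUD1 lay above every other enzyme of the set in every core library, GLUL and PYCR1 could not be ordered beyond their spread, and ALDH18A1 and GOT2 overlapped. In the invasive fraction GOT2 (39.0), ALDH18A1 (38.7), PYCR1 (37.9) and GLUD1 (37.3) overlapped, GLUL stood at 27.8, GOT1 at 10.9 and GPT2 at 3.70 FPKM. GOT1 and GPT2 were the lowest of the 7 tested enzymes in all 9 libraries. Across the 9 libraries the highest value was 4.45 times the lowest for PYCR1, 3.98 for GOT1, 3.46 for GPT2, 2.83 for GOT2, 2.23 for ALDH18A1 and 2.02 for GLUL, against 1.22 for GLUD1.

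**Figure D1:**
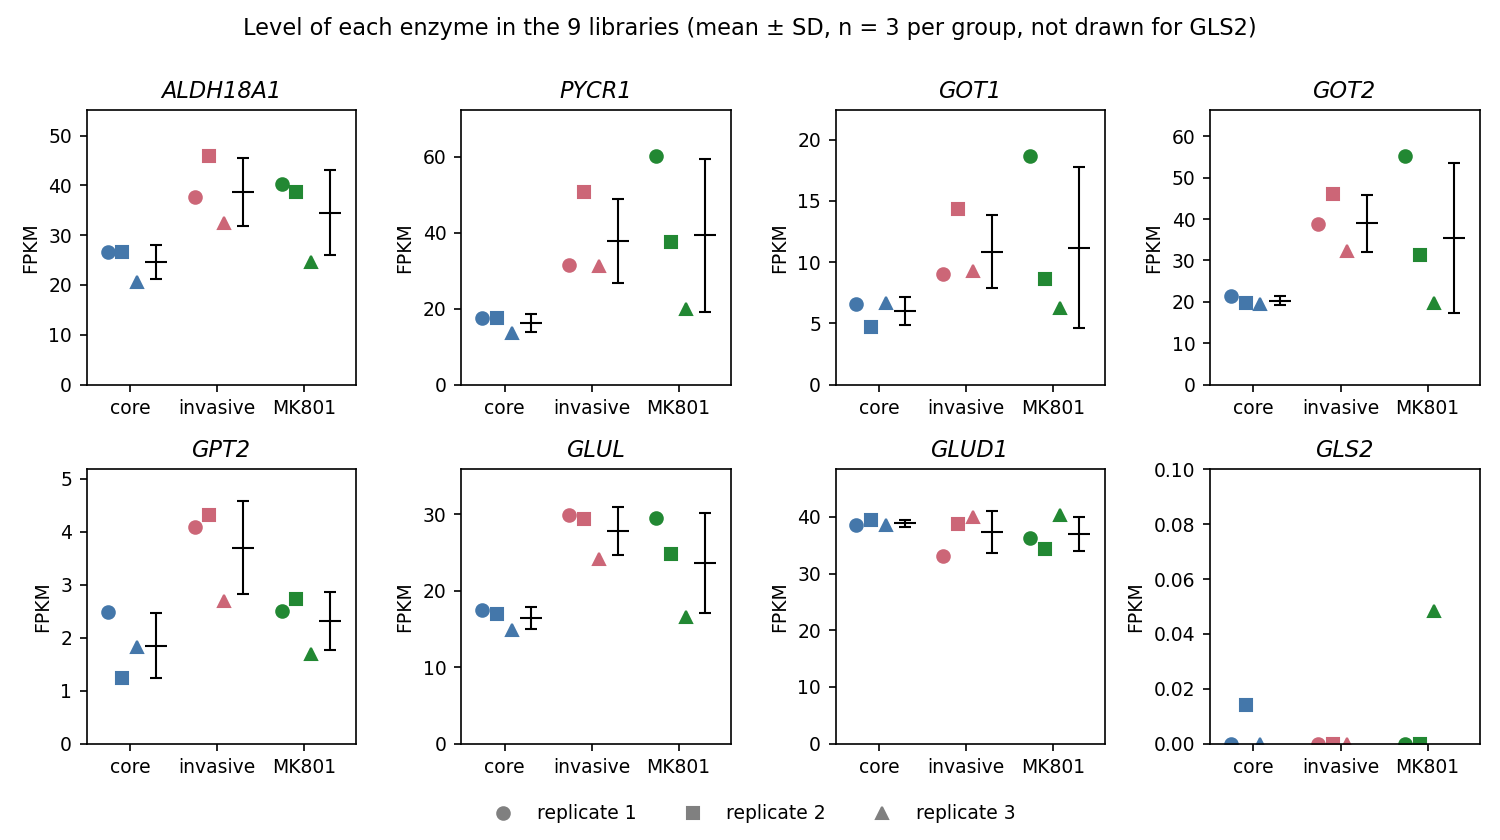
FPKM of each enzyme (vertical axes, each from 0) in core, invasive and MK801 libraries, with 1 symbol per replicate and horizontal bars at the mean with SD (n = 3), which are not drawn for GLS2. For 6 enzymes every invasive library lies above every core library, GLUD1 is level in the 3 groups on this deposited scale, and GLS2 is at or near 0.

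The glutaminase of the set was GLS2, the liver-type enzyme (ENSG00000135423, chromosome 12, 56470944 to 56488414, minus strand, all coordinates on GRCh38). It had 0 fragments in 7 of the 9 libraries, 1 fragment in core library 2 (0.0141 FPKM) and 13 in MK801 library 3 (0.0483 FPKM), the most deeply sequenced library. A count of 0 allows up to 3 fragments, which is at most 0.0512 FPKM in these libraries and covers counting error only. Of its exon bases, 77.1% are shared with SPRYD4 on the opposite strand, which was listed at 0.254 to 1.24 FPKM, and whether strand was used in counting is not given in the sources used here. The GLS2 values are therefore uncertain, and how the overlap was counted was not tested.

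The first comparison asked how core and invasive cells of the control devices differ. On the deposited scale, every invasive library had a higher level than every core library for 6 of the 7 tested enzymes, all but GLUD1. The group means differed by 1.57 times (ALDH18A1) to 2.33 times (PYCR1). Such a separation was common, since 32.0% of all tested genes were higher without overlap and 64.8% were separated in either direction. It also depended on the scale for GPT2, which overlapped between the groups after scaling to each library's total of fragments assigned to genes (the gene total). On that scale GLUD1 was lower in every invasive library than in every core library. With the deposited values, the median difference was 0.73 on the log2(FPKM + 1) scale over the 7 enzymes and -0.02 over all 11845 genes. That background depends on level, and most of the 7 are well expressed. Over the 6886 genes that passed a filter of 5 FPKM, as 6 of the 7 enzymes did, the median was 0.24. In limma's test on all 9 libraries, none of the 7 enzymes passed an adjusted p of 0.05, nor did any gene (0 of 11845, 0.0%), although 5 of the 7 and 4461 of all genes had an unadjusted p under 0.05. Limma with voom weights on the recovered fragments also called 0 genes in each of the 3 comparisons.

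That fit takes its spread from all 3 groups, and the MK801 libraries differed widely among themselves. With the 6 control libraries alone, the same 6 enzymes passed, beside 52.2% of all genes (26.3% in the upward direction). When the trend of each library over gene GC content was also removed, 4 of the 6 still passed (GLUL, GOT2, ALDH18A1 and PYCR1), beside 19.2% of all genes. Without MK801 library 1, and likewise without MK801 library 3, 5 enzymes passed, beside 39.5% and 41.3% of all genes. With the replicate number as a block in the 9-library fit, 4 passed (GLUL, GOT2, GPT2 and PYCR1), beside 21.3% of all genes. The deposited columns of same-numbered core and invasive libraries share a name stem, but no description says that they come from 1 device. Log2 differences and standard errors below come from the 9-library fit, in which they did not pass, and they are on a scale that understates changes of weakly expressed genes.

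GLUL, glutamine synthetase (ENSG00000135821, chromosome 1, 182381704 to 182392206, minus strand), was at 17.5, 16.9 and 14.8 FPKM in core and at 29.9, 29.4 and 24.2 FPKM in invasive libraries. The groups did not overlap, and their means were 16.4 ± 1.43 and 27.8 ± 3.16 (SD, n = 3 each). The log2 difference was 0.72 (SE 0.24, 95% interval 0.19 to 1.26, limma adjusted p = 0.106). Of the 7 enzymes GLUL has the transcript with the lowest GC content (44.3%), and removing the GC trend moved its difference up to 1.05, while scaling to the gene total gave 0.43 and adding the number of genes detected to the fit gave 0.39. Less than 1% of its 75-base stretches (0.495%) occur in another gene, and it shares no exon with another gene.

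The level of GLUL relative to glutamate dehydrogenase (GLUD1) does not depend on any factor by which a whole library is scaled. The ratio was 0.455, 0.428 and 0.384 in core and 0.904, 0.757 and 0.606 in invasive libraries, so the lowest invasive ratio lay above the highest core ratio. An exact two-sided permutation test of 3 against 3 libraries gave p = 0.1, the smallest it can give, and this ratio was 1 of 5 computed in 3 comparisons after the levels had been seen. The transcripts of GLUL and GLUD1 have similar GC content (44.3% and 46.4%), and with the GC trend removed their log2 differences were 1.05 and 0.11. In MK801 libraries the ratio was 0.815, 0.720 and 0.411, with libraries 1 and 2 in the invasive range and library 3 in the core range.

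GLUD1, mitochondrial glutamate dehydrogenase (ENSG00000148672, chromosome 10, 87050486 to 87094866, minus strand), was at 38.5, 39.5 and 38.6 FPKM in core and at 33.1, 38.8 and 39.9 FPKM in invasive libraries. The groups overlapped, with means of 38.9 ± 0.573 and 37.3 ± 3.68 (SD, n = 3 each). The log2 difference was -0.06 (SE 0.20), with a 95% interval of -0.50 to 0.37, and the limma adjusted p was 0.811. The sign of the difference turned, to 0.11, with the GC trend removed. Scaling to the gene total, which lowered the median of all genes to -0.25, gave -0.36. On that scale every invasive library lay below every core library. The means were 45.4 ± 1.95 in core and 35.4 ± 6.27 in invasive libraries (SD, n = 3 each). Quantile normalization, with a median of 0.01 over all genes, gave -0.49 (limma adjusted p = 0.132). Under all alternatives the difference ran from -0.49 to 0.11. GLUD1 shares 18.3% of its 75-base stretches with its retrocopy GLUD2, which had a mean of 0.132 FPKM in core and 0.418 in invasive libraries, so counts of this pair are uncertain. A further 13.2% of its exon bases are shared with SHLD2 on the opposite strand.

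The transaminases of the aspartate pair were both higher in invasive libraries, and in similar proportion. GOT2, the mitochondrial enzyme (ENSG00000125166, chromosome 16, 58707131 to 58734357, minus strand), was at 21.5, 19.8 and 19.5 FPKM in core and at 38.7, 45.9 and 32.2 FPKM in invasive libraries. The means were 20.3 ± 1.06 and 39.0 ± 6.89 (SD, n = 3 each), and the log2 difference was 0.90 (SE 0.33, 95% interval 0.17 to 1.63, limma adjusted p = 0.109). GOT1, the cytosolic enzyme (ENSG00000120053, chromosome 10, 99396870 to 99431569, minus strand), was at 6.59, 4.68 and 6.68 FPKM in core and at 9.04, 14.3 and 9.25 FPKM in invasive libraries. Its log2 difference was 0.75 (SE 0.35, 95% interval -0.02 to 1.52, limma adjusted p = 0.139), with the widest interval of the 3 transaminases, and it moved to 0.11 when the number of genes detected entered the fit. The ratio of GOT2 to GOT1 was 3.26, 4.23 and 2.92 in core and 4.29, 3.21 and 3.48 in invasive libraries, which overlap (exact permutation p = 0.7, two-sided). On the opposite strand, GOT1 shares 19.3% of its exon bases with AL391684.1 and GOT2 4.30% with AC092378.1. These were listed at no more than 0.129 and 0.0693 FPKM, and how the overlap was counted was not tested.

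GPT2, the mitochondrial alanine transaminase (ENSG00000166123, chromosome 16, 46884378 to 46931297, plus strand), was at 2.48, 1.25 and 1.82 FPKM in core and at 4.09, 4.31 and 2.70 FPKM in invasive libraries. The lowest invasive library lay just above the highest core library on the deposited scale. Scaled to the gene total, the groups overlapped, with means of 2.18 ± 0.773 in core and 3.46 ± 0.619 in invasive libraries (SD, n = 3 each). The log2 difference was 0.73 (SE 0.25, limma adjusted p = 0.106), and it was 0.26 with the GC trend removed. These values rest on 136 to 701 fragments per library, the fewest of the 7 tested enzymes. Its cytosolic relative GPT did not pass the filter and reached at most 0.524 FPKM in any library.

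The 2 enzymes of proline synthesis were higher in every invasive library, and PYCR1 had the largest difference of the 7. ALDH18A1, which makes the pyrroline carboxylate precursor from glutamate (ENSG00000059573, chromosome 10, 95605929 to 95656706, minus strand), was at 26.7, 26.6 and 20.6 FPKM in core and at 37.7, 45.9 and 32.4 FPKM in invasive libraries. Its log2 difference was 0.63 (SE 0.26, 95% interval 0.06 to 1.19, limma adjusted p = 0.118). PYCR1, the mitochondrial reductase that completes proline (ENSG00000183010, chromosome 17, 81932384 to 81942412, minus strand), was at 17.6, 17.5 and 13.5 FPKM in core and at 31.6, 50.8 and 31.2 FPKM in invasive libraries. Its means were 16.2 ± 2.34 and 37.9 ± 11.2 (SD, n = 3 each), and the log2 difference was 1.15 (SE 0.37, 95% interval 0.33 to 1.96, limma adjusted p = 0.106). PYCR1 shares 14.1% of its exon bases with MYADML2 on the same strand and 15.6% with AC145207.4 on the opposite strand. MYADML2 was listed at no more than 0.0204 FPKM and AC145207.4 at 0, and how the overlap was counted was not tested.

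Within a library, the balance of these 2 enzymes also differed between the fractions. The ratio of PYCR1 to ALDH18A1 was 0.661, 0.658 and 0.656 in core and 0.837, 1.11 and 0.964 in invasive libraries, a separation with an exact permutation p of 0.1, the smallest possible. The PYCR1 transcript has the highest GC content of the 7 (61.8%, against 49.3% for ALDH18A1). With the GC trend removed, the log2 differences were 0.45 for PYCR1 and 0.59 for ALDH18A1, so PYCR1 no longer exceeded its partner.

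**Figure D2:**
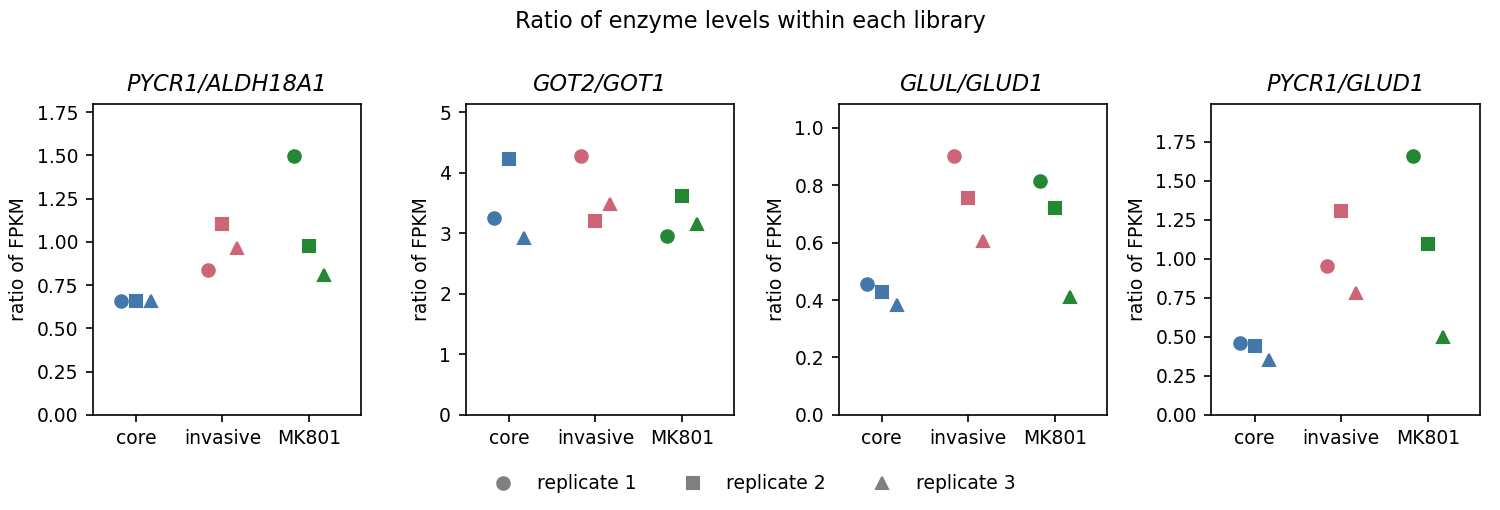
Ratio of the FPKM of 2 enzymes within each library (vertical axes, from 0), for PYCR1/ALDH18A1, GOT2/GOT1, GLUL/GLUD1 and PYCR1/GLUD1, with 1 symbol per replicate. GLUL/GLUD1 runs from 0.384 to 0.455 in core and from 0.606 to 0.904 in invasive libraries, whereas GOT2/GOT1 overlaps between all groups.

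Under every alternative computed for invasive minus core, the differences of these 6 enzymes stayed above 0, at 0.39 to 1.05 for GLUL, 0.11 to 0.86 for GOT1, 0.28 to 1.02 for GOT2, 0.26 to 0.98 for GPT2, 0.24 to 0.74 for ALDH18A1 and 0.44 to 1.26 for PYCR1. The levels of GOT2 and PYCR1 ran opposite to the number of genes detected, also among the MK801 libraries. The 3 libraries with the fewest genes detected, MK801 library 1, invasive library 2 and invasive library 1, held the 3 highest GOT2 levels (55.2, 45.9 and 38.7 FPKM). MK801 library 3, with the most genes detected, had 19.7 FPKM, within the core range. GLUD1 stayed between 33.1 and 40.3 FPKM in libraries with few and with many genes detected.

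**Figure D3:**
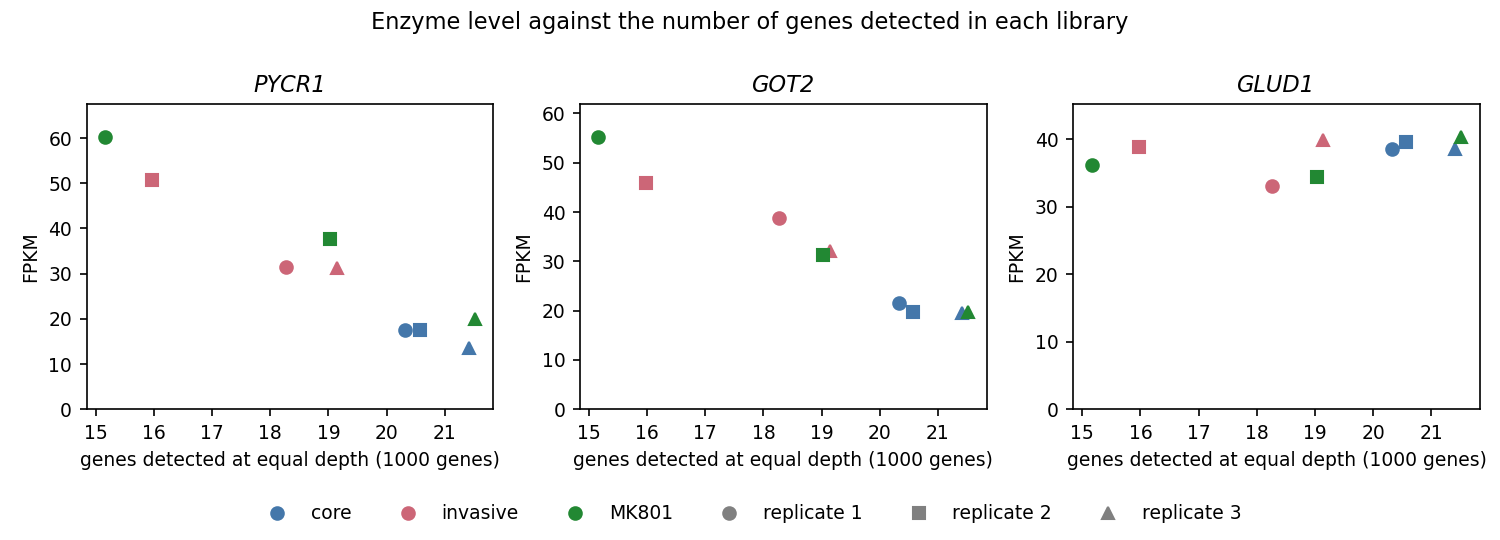
FPKM of PYCR1, GOT2 and GLUD1 (vertical axes, from 0) against the number of genes detected in each library at equal depth (horizontal axes), with 1 symbol per library. Libraries with fewer genes detected show more PYCR1 and GOT2, in control and MK801 libraries alike, whereas GLUD1 stays between 33.1 and 40.3 FPKM.

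Promoter sequence is shown for the enzymes that were higher in invasive libraries and whose upstream stretch holds a match to a motif of stress or growth regulation. It is also shown for GLUD1, which was level on the deposited scale. Sequences are from RefSeq on GRCh38.p14, which gave a start site for 6 of the 8 genes (not GPT2 and PYCR1). The 250 bases before the start were searched on both strands for the amino acid response element TGATGNAA, the E-box CACGTG, the antioxidant response element TGACNNNGC and the GC box GGGCGG, which do not overlap each other in the matches found. Each is written 5′ to 3′ on the gene's own strand, the minus strand, with motif matches in capitals, and positions count back from the start site. ALDH18A1 (chr10:95656712-95656961) has an E-box at -136. GOT1 (30 bases at chr10:99430804-99430833) has an amino acid response element on the opposite strand at -198, in a window that GENCODE annotates as exon throughout. The GOT1 window also holds a GC box on the opposite strand at -51, outside the bases shown. GOT2 (chr16:58734358-58734566) has an antioxidant response element at -56 and a GC box on the opposite strand at -83. GLUD1 (chr10:87094867-87095093) has GC boxes at -214, on the opposite strand, and at -119.
ALDH18A1: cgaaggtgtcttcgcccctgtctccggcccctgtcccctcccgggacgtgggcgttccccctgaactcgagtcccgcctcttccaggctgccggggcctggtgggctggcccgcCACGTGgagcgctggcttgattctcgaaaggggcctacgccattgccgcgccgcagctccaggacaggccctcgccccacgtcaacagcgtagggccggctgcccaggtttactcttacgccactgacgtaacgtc
GOT1: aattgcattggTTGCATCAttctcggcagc
GOT2: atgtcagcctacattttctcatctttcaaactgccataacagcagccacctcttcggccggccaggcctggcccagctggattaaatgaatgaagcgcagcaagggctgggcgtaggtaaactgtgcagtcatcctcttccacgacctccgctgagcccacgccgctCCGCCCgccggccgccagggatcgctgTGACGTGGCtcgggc
GLUD1: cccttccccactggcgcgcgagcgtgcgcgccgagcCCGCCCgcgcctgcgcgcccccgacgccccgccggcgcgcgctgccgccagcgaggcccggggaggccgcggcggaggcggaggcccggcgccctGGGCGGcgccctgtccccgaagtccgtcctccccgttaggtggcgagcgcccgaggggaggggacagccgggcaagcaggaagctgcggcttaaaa

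Among 35116 such RefSeq windows, the amino acid response element occurs in 3.14%, the E-box in 6.34%, the antioxidant response element in 10.9% and the GC box in 42.6%. Among the windows of these 6 genes, of which GLUL has 2, the amino acid response element was found in that of GOT1 alone, the E-box in that of ALDH18A1 alone and the antioxidant response element in that of GOT2 alone. The GC box was found in every window, both of GLUL included, except that of ALDH18A1. A match is a run of letters, and binding was not measured.

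The wider pathway was described from a list of 56 genes that includes the 8 enzymes, of which 42 were tested. For the 35 tested genes besides the enzymes, 21 were higher and 14 lower in invasive libraries, 18 and 9 of them without overlap, with a median log2 difference of 0.33 and none past the threshold. Of all tested genes, 32.0% were higher and 32.8% lower without overlap. In proline metabolism, PYCR3, a relative of PYCR1, was at 2.49 ± 1.00 FPKM in core and 6.78 ± 1.01 in invasive libraries (SD, n = 3 each) without overlap. Its log2 difference was 1.19, and 0.46 with the GC trend removed. ALDH4A1, which acts in the breakdown of proline to glutamate, had means of 0.350 ± 0.0515 and 1.52 ± 0.257 FPKM. It passed the filter only through libraries in which it was high, so its direction was set by the filter. The proline oxidases PRODH and PRODH2 had 0 FPKM as group means.

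The transaminases did not share a direction. Of 10 tested, 6 were higher and 4 lower, and the higher ones included all 3 of GOT1, GOT2 and GPT2. Genes that transfer the amide nitrogen of glutamine, in nucleotide, hexosamine and NAD synthesis, were also split, 5 higher and 4 lower. Of these, PFAS of purine synthesis was at 2.64 ± 0.127 FPKM in core and 5.54 ± 0.449 in invasive libraries (log2 difference 0.84, limma adjusted p = 0.0868). CAD and CTPS1, of pyrimidine synthesis, stood at 7.29 ± 0.755 and 18.3 ± 6.19, and at 2.29 ± 0.494 and 4.64 ± 0.603 FPKM. With the GC trend removed, the log2 difference fell to 0.25 for PFAS and from 1.18 to 0.60 for CAD. For CTPS1 it rose from 0.78 to 1.19. The glutathione genes were 5 higher and 4 lower, the partners of GOT1 and GOT2 in the malate-aspartate shuttle 4 higher and 1 lower, and none of the 4 genes of GABA metabolism passed the filter.

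**Figure D4:**
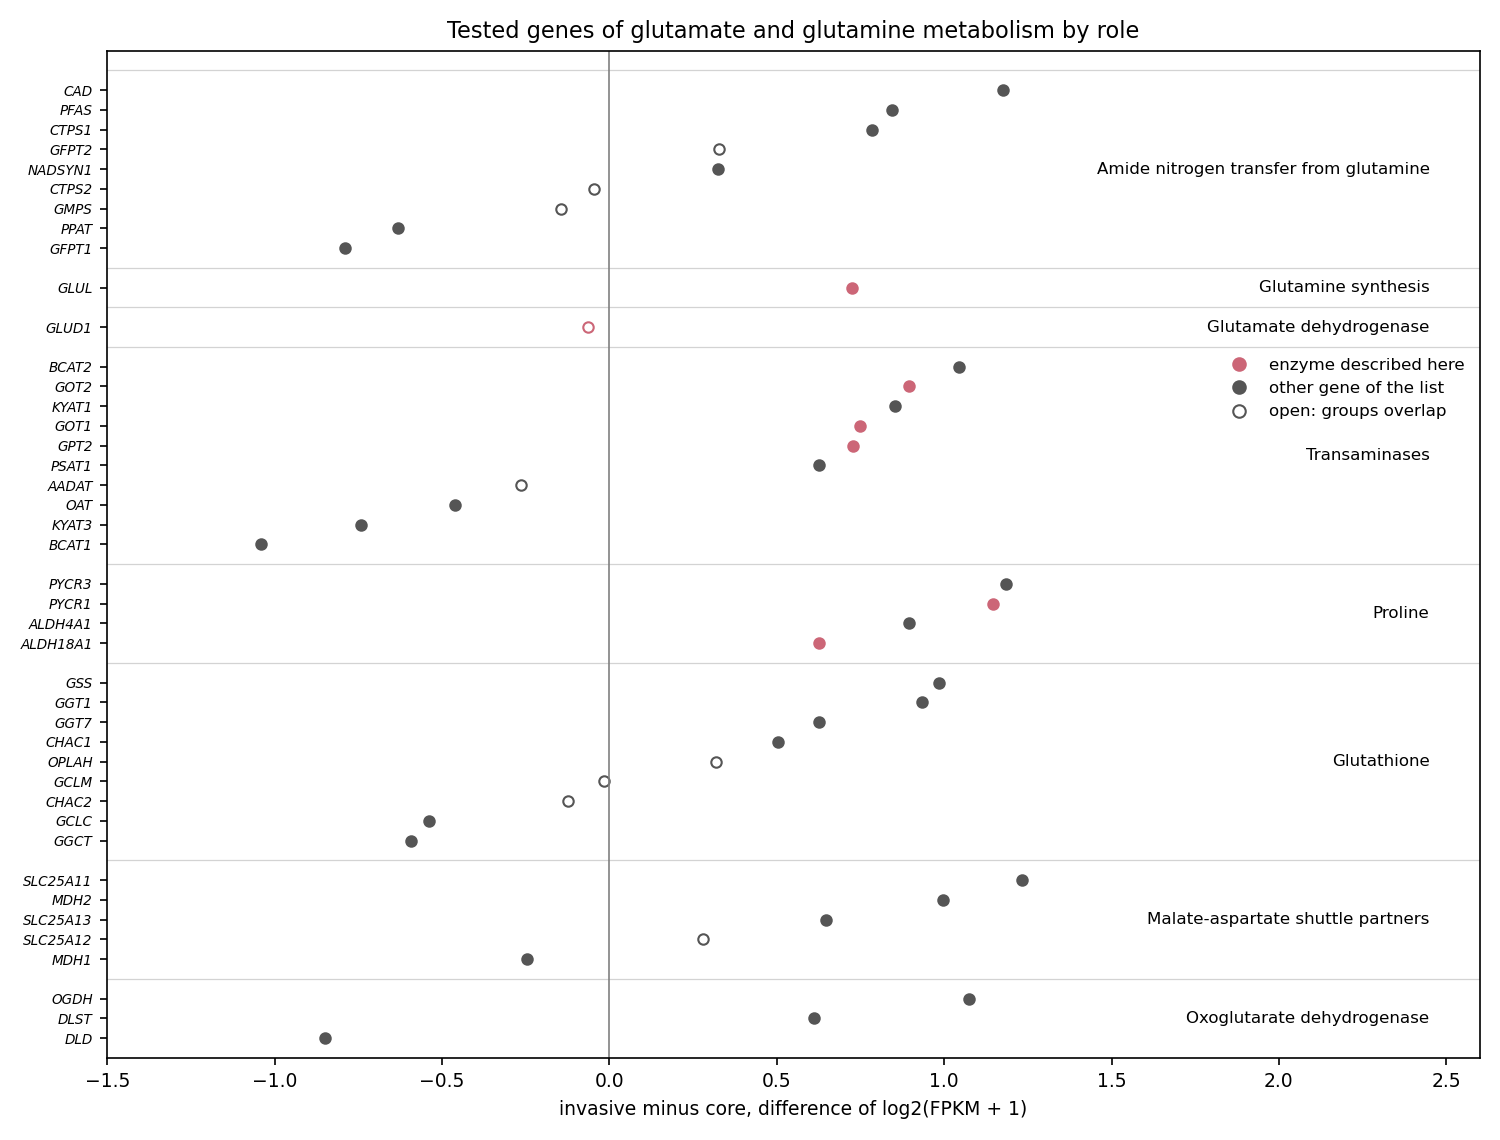
Difference of mean log2(FPKM + 1) between invasive and core libraries (horizontal axis) for the 42 tested genes of glutamate and glutamine metabolism, grouped by role. Filled circles are genes whose 3 invasive and 3 core libraries do not overlap, and coloured circles are the 7 tested enzymes. Transaminases lie on both sides of 0, GLUD1 lies at -0.06, and ALDH4A1 was tested only because it is high in invasive libraries.

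The other comparisons set MK801 devices against each control fraction. They share their MK801 libraries, and each shares its control libraries with the first comparison, so the 3 are not independent. Against the core, only PYCR1 was higher without overlap, at 60.2, 37.6 and 20.0 FPKM in MK801 libraries 1 to 3, above the core maximum of 17.6. Of all tested genes 9.89% were higher than core without overlap and 18.7% in either direction. The log2 difference of PYCR1 was 1.10 (SE 0.37, limma adjusted p = 0.235), and no enzyme and no gene passed the threshold (0 of 11845, 0.0%), with 2509 genes at an unadjusted p under 0.05.

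The MK801 libraries spanned most of the range between the control fractions. GOT2 was at 55.2, 31.2 and 19.7 FPKM in MK801 libraries 1 to 3, and GOT1 at 18.7, 8.63 and 6.25. ALDH18A1 was at 40.2, 38.6 and 24.7 FPKM, and GLUL at 29.5, 24.8 and 16.6. In these 4 enzymes library 1 was the highest of the group and library 3 the lowest, the order in which the number of genes detected runs the other way. GPT2 was at 2.50, 2.73 and 1.70 FPKM and GLUD1 at 36.2, 34.4 and 40.3.

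Set against the ranges of the control libraries, MK801 library 3 had 5 of the 7 enzymes within the core range, where 53.6% of all genes lay, and none within the invasive range. MK801 library 2 had 5 of 7 within the invasive range (46.9% of all genes) and none within the core range. MK801 library 1 had 3 of 7 within the invasive range (30.7% of all genes) and none within the core range, and it exceeded all control libraries for GOT1, GOT2 and PYCR1. Without MK801 library 3, 5 of the enzymes passed the threshold against the core, with log2 differences of 0.69 for GLUL, 0.99 for GOT1, 1.00 for GOT2, 0.66 for ALDH18A1 and 1.51 for PYCR1, beside 50.2% of all genes. GPT2 had a log2 difference of 0.23 against the core (limma adjusted p = 0.517), which turned to -0.14 with the GC trend removed.

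Against the invasive fraction, all 7 enzymes overlapped between the groups, where 10.8% of all genes did not overlap in either direction. No enzyme and no gene passed limma's adjusted threshold (0 of 11845, 0.0%), with 978 genes at an unadjusted p under 0.05. The 7 log2 differences lay between -0.50 and -0.01, with a median of -0.18 against -0.00 over all genes. The largest was that of GPT2, from 3.70 ± 0.875 FPKM in invasive to 2.31 ± 0.544 in MK801 libraries (log2 difference -0.50, SE 0.25, 95% interval -1.05 to 0.05, limma adjusted p = 0.680). The interval was widest for PYCR1, at -0.85 to 0.77, and was -0.45 to 0.43 for GLUD1.

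**Figure D5:**
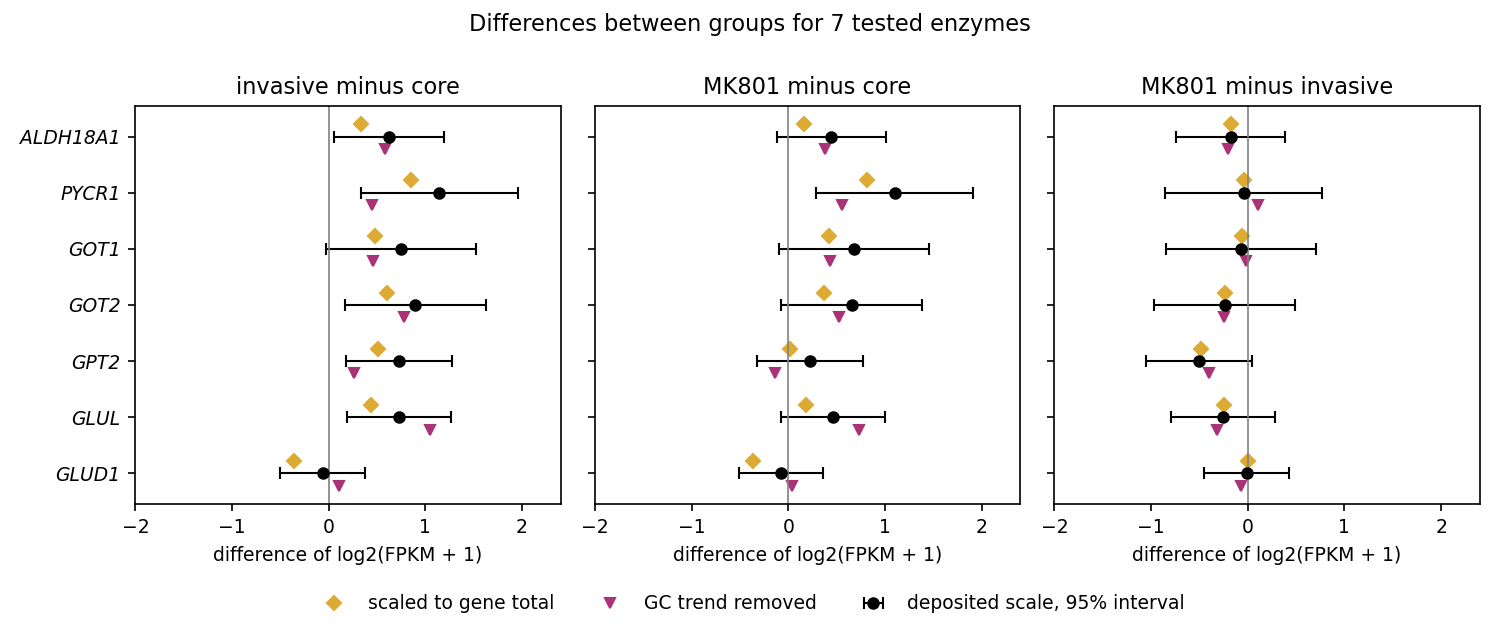
Difference of mean log2(FPKM + 1) for the 7 tested enzymes in the 3 comparisons (horizontal axes), with circles and 95% intervals from limma on the deposited scale, diamonds after scaling to the gene total and triangles after removing each library's GC trend. In invasive minus core the circles of 6 enzymes lie between 0.63 and 1.15, and in MK801 minus invasive all 7 intervals of the enzymes span 0.

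Among the other pathway genes, 2 were higher and 3 lower in MK801 than in core libraries without overlap, beside 9.89% and 8.82% of all genes. Against the invasive libraries 0 were higher and 7 lower without overlap, beside 5.22% and 5.63% of all genes. DLD, the dehydrogenase subunit that serves the oxoglutarate complex, had means of 8.50 ± 0.860 (core), 4.34 ± 1.11 (invasive) and 4.14 ± 1.67 FPKM (MK801). BCAT2, the mitochondrial branched-chain transaminase, was at 11.7 ± 2.90, 25.4 ± 7.92 and 25.9 ± 14.0 FPKM in the same order. AADAT, another transaminase, had means of 3.43 ± 0.492, 2.74 ± 0.813 and 1.75 ± 0.570 FPKM, and PPAT of purine synthesis 5.06 ± 0.189, 2.94 ± 0.540 and 2.83 ± 2.11 FPKM. MK801 and core libraries did not overlap for DLD and AADAT but overlapped for BCAT2 and PPAT, and the limma adjusted p was 0.235 for each of the 4. Removing the GC trend moved their log2 differences against the core from -0.93 to -0.35 for DLD and from -0.71 to -0.27 for AADAT. BCAT2 moved from 0.97 to 0.45 and PPAT from -0.80 to -0.13. PFAS (5.54 to 3.45 FPKM), CTPS1 (4.64 to 2.68), PSAT1 of serine synthesis (log2 difference -0.72) and ALDH4A1 (1.52 to 0.582) had lower means in MK801 than in invasive libraries. The limma adjusted p-values of PFAS, CTPS1 and PSAT1 were 0.439 to 0.488. ALDH4A1, which is among the 7 lower without overlap, passed the filter through the invasive libraries, in which it was high. Its lower level in MK801 libraries was therefore favoured by the filter, and no p-value is given for it.

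Across the 9 libraries GLUD1 varied apart from the other 6 enzymes, which were correlated with each other to differing degrees. As a description over libraries that share their depth and GC content with every gene, Pearson's r on log2(FPKM + 1) was 0.958 between GOT2 and PYCR1, 0.959 between GLUL and ALDH18A1, 0.946 between GOT1 and GOT2 and 0.944 between ALDH18A1 and PYCR1. It was lower for GPT2, at 0.656 with GOT1, 0.665 with PYCR1 and 0.745 with GOT2, and 0.789 between GOT1 and ALDH18A1. GLUD1 had r of -0.596 to -0.329 with the other 6. Among the 5892 protein-coding genes whose mean reached 5 FPKM (5893 for GPT2), the gene most like GLUL was CNP (r = 0.994), that most like GOT2 was PPP5C (0.997), that most like GOT1 was ACADS (0.982), that most like PYCR1 was PNPLA6 (0.998) and that most like ALDH18A1 was CYFIP1 (0.996). GPT2 was most like MIPEP (0.973), TNS3 (0.968) and COL4A2 (0.961), all of which had their highest group mean in invasive libraries. GLUD1 had no close match, with ARL6IP5 nearest at 0.866.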

How the data were processed

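Expression was measured by RNA sequencing in 9 libraries (3 core, 3 invasive, 3 MK801), each matched to its column by the column name in its label, with 0 value columns left without a sample. The authors deposited FPKM per gene with the gene length. Per the submitters' processing notes, reads were handled with HISAT2 2.0.5 and featureCounts 1.5.0-p3 on GRCh38, while strand settings are not given in the sources used here. Identifiers and coordinates matched GENCODE release 29 (100%). Multiplying FPKM by gene length gave whole fragments for 100% of values (tolerance 0.01 fragments), from which depth was recovered (15584610 to 54409666 fragments per library). The authors' divisor was 1.10 to 1.23 times this depth in core, 0.788 to 1.06 times in invasive and 0.769 to 1.19 times in MK801 libraries. The deposited scale gives the median gene the same level in all libraries.

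Values were analysed as log2(FPKM + 1). Genes reaching 1 FPKM in at least 3 libraries were fitted with limma 3.58.1 in R 4.3.3 with 1 mean per group and a trend of the variance over the level (6 residual degrees of freedom). Benjamini-Hochberg adjustment ran over all 11845 genes, and the threshold was 0.05. The script was tested on simulated data. The GC trend was a loess curve (span 0.3) over transcript GC content, known for 99.97% of tested genes. Coordinates and exon overlap are from the deposited table and GENCODE. Shared sequence was counted as 75-base stretches.

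The 8 enzymes, the pathway list and the motifs were chosen with earlier results of these data known. Other pathway genes are named where p was among the 4 smallest of the list in a comparison, and some close paralogs of an enzyme are named. Certain genes of the pathway are not reported here. Likeness names up to 3 protein-coding genes whose mean reached 5 FPKM, by Pearson correlation. The ratios were chosen after the levels were seen. Alternatives were pseudocounts, filters, gene-total, quantile and voom scaling, removal of the GC trend, groups alone, a replicate block and leaving out each library. Added after seeing the data were leaving out libraries of the group not compared, leaving out both libraries that detected the fewest genes, and the number detected as a covariate.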

Additional observations from a re-analysis of the deposited data

How the results depend on the processing

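The enzymes' differences between invasive and core libraries kept their sign under all alternatives for 6 enzymes, while the number past the threshold changed with the libraries that set the spread. It was 0 in the 9-library fit, 6 with the 6 control libraries alone, 4 with these and the GC trend removed, and 0 to 5 on leaving out 1 library. It was 5 without MK801 library 1 and without MK801 library 3. Of the 35 other pathway genes 23, 9 and 0 to 21 passed, and of all genes 6179, 2278 and 0 to 4888, with 6 after quantile normalization, 14 without the 2 libraries with the fewest genes detected and 4 with that number as a covariate. Against the core, leaving out 1 library gave 0 to 5 enzymes, 0 to 16 other pathway genes and 0 to 5941 genes, all 3 highest without MK801 library 3. Against the invasive fraction, the genes past the threshold numbered 74 with the GC trend removed, 3 with this in the groups alone, 1 with a filter of 5 FPKM, 323 with genes detected as a covariate and 0 to 42 on leaving out 1 library. Fits that leave libraries out also hold fewer libraries, and the cause of these changes was not tested.

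The replicate numbers of the labels were used as a block in a further fit. Same-numbered libraries had correlated deviations of -0.01, 0.24 and 0.44 between core and invasive, of 0.41, 0.04 and 0.59 between core and MK801, and of -0.15, 0.03 and 0.61 between invasive and MK801, so not every pair exceeded 0.1. For differently numbered libraries the values ran from -0.40 to 0.21, from -0.52 to 0.17 and from -0.55 to 0.53, in the same order. Column names of same-numbered core and invasive libraries share a stem, which may mark a device, but no description says so, and the pairing could not be settled. With the block, 4 enzymes (GLUL, GOT2, GPT2 and PYCR1), 11 other pathway genes and 2525 genes passed in invasive minus core. In that block fit GOT2 and GPT2 lay just below the threshold (limma adjusted p = 0.0499 and 0.04995) and ALDH18A1 just above it (0.0502). With the block and the GC trend removed, 43 genes passed there and 38 in MK801 minus invasive. These counts held 0 of the enzymes and 0 of the other pathway genes.

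Some single differences turned sign. With the GC trend removed, GLUD1 turned to 0.11 in invasive minus core, GLUD1 to 0.039 and GPT2 to -0.14 in MK801 minus core, and PYCR1 to 0.11 in MK801 minus invasive, with or without the block. In MK801 minus invasive, GLUD1 turned to 0.056 after quantile normalization, 0.00161 on the gene total, 0.039 by voom and 0.034 without the 2 libraries with the fewest genes detected, and the covariate turned PYCR1 to 0.14 and GOT1 to 0.10. Leaving out 1 library gave -0.11 to 0.018 for GLUD1 in invasive minus core. In MK801 minus invasive it gave -0.091 to 0.041 for GLUD1, -0.41 to 0.36 for PYCR1, -0.48 to 0.24 for GOT1, -0.61 to 0.11 for GOT2 and -0.30 to 0.039 for ALDH18A1, the upper end in the last 4 without MK801 library 3. Of the single-gene values under alternatives, 722 kept their sign and side of the threshold, 55 passed it anew and 30 turned sign. Depth limits GPT2 (136 fragments at the fewest) and GLS2.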
